A study of Mus musculus with 4 samples.

Results

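The genes described here are 10 established transcriptional targets of the tumour suppressor p53, measured in livers of mice labelled as conditional liver knockouts of NIPP1 and of control mice. They are Cdkn1a, Mdm2, Ccng1, Bax, Aen, Trp53inp1, Eda2r, Phlda3, Zmat3 and Plk2, taken by name from the 27653 named genes on the array, with all probes of each gene. All 10 had a probe, and 9 had signal enough to be tested among 16247 genes in all, a gene without a name counting as its probe. Eda2r was the one left out.

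Liver RNA came from 8 untreated male mice of mixed strain, 2 months old, 4 labelled as controls and 4 labelled as carrying a liver-specific conditional knockout of NIPP1. NIPP1, encoded by Ppp1r8, is a nuclear subunit that binds and restrains protein phosphatase 1. Each of 4 two-colour Agilent arrays held RNA of 1 knockout and 1 control mouse, and no mouse was on more than 1 array. The knockout RNA carried the dye Cy3 on arrays 1 and 2 and Cy5 on arrays 3 and 4, so each dye orientation held different mice. The labels give neither the driver of Cre nor the deleted exons, and of the control mice they say only that they are controls.

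The transcription factor p53 is kept low in unstressed cells by Mdm2 and Mdm4, which block it and, in the case of Mdm2, mark it for degradation. DNA damage and other stress release it, and it then activates genes that halt the cell cycle, promote cell death, repair DNA or adjust metabolism. Mdm2 is itself a target, which closes a feedback loop. Adult hepatocytes seldom divide, and Cdkn1a is known to restrain their entry into the cell cycle after injury.

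The DNA element that p53 reads is a pair of half-sites, each following the p53 half-site consensus of 10 letters, with a short spacer between them. RefSeq promoter windows, from 250 bases before to 50 after an annotated start on GRCm38.p6, were at hand for 8 of the 10 genes, as 10 windows. Trp53inp1 and Zmat3 have no entry. An exact half-site, which reads the same on both strands, was found in 6 of the 10 windows, belonging to 5 genes (Cdkn1a, Mdm2, Ccng1, Bax and Aen), against 8.36% of all 32851 windows. A pair was allowed at most 2 mismatches and a spacer of at most 13 bases. Such a pair was found in 3 of the 10 windows, belonging to 3 genes (Cdkn1a, Ccng1 and Bax), against 4.09% of all windows. The windows of Eda2r, Phlda3 and Plk2 and the second window of Cdkn1a held neither. The genes are known p53 targets, so these matches describe them and test nothing. The 250 bases before the start are shown for the 4 genes with a match there, and 30 bases around the match for Aen, to show the matched letters in their context. Capitals mark the exact half-sites and, where pairs were found, a pair with the fewest mismatches.
Cdkn1a, first start, chr17:29090729-29090978, plus strand: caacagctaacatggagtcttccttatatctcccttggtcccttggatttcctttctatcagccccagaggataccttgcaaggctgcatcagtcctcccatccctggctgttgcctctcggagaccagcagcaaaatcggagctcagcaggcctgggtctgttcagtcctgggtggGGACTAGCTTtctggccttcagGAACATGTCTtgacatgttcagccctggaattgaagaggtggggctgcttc
Ccng1, chr11:40755287-40755536, minus strand: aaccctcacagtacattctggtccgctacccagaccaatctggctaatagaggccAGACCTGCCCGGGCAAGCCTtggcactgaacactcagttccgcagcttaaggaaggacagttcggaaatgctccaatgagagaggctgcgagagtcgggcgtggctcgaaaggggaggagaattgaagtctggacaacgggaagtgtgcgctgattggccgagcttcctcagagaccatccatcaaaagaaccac
Bax, chr7:45466899-45467148, minus strand: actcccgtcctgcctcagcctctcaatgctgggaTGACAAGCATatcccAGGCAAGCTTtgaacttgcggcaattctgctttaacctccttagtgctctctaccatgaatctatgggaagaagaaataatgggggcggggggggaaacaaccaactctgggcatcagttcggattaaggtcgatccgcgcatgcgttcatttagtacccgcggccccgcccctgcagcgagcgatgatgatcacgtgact
Mdm2, chr10:117710759-117711008, minus strand: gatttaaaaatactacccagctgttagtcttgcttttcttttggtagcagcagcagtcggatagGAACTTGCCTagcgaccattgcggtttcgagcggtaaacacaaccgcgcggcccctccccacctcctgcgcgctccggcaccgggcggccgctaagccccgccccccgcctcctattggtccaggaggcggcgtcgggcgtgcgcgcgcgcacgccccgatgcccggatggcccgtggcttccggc
Aen, chr7:78895927-78895956, plus strand: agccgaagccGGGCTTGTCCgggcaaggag
In Cdkn1a the marked pair began 73 bases before the first start, with 0 mismatches and a spacer of 12. The bases directly after its second half-site, left in small letters, form another pair with that half-site, with 1 mismatch and a spacer of 0. The marked Ccng1 pair began 195 bases before the start and had 1 mismatch and a spacer of 0. The marked Bax pair began at 216 and had 2 mismatches and a spacer of 5. Mdm2 had a single half-site 186 bases before the start. The Aen half-site lay 11 bases after one annotated start and 121 before another. These windows hold only the region next to a start, and p53 elements elsewhere in a gene, such as an intron, are not covered by them.

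The comparison asks whether p53 target transcripts differ between knockout and control liver. Aen and Ccng1 were higher in the knockout on all 4 arrays, by 1.63-fold and 1.42-fold. In both genes all 4 knockout mice lay above all 4 control mice. The share of all tested genes that did so was not counted. Read within each dye, 11.4% of all tested genes had the knockout mice above the control mice in both dyes. Cdkn1a was higher on 3 arrays, by 1.62-fold in the mean, and Phlda3 was higher on all 4 by 1.15-fold. Mdm2 showed no difference larger than its error. None of the 9 genes passed an adjusted p of 0.05 in limma, and neither did any other gene (0% of 16247, with 3694 genes at an unadjusted p under 0.05). At an adjusted p under 0.1, Aen and Ccng1 were higher, 2 of 9, against 3.53% of all tested genes. At an unadjusted p under 0.05, 5 of 9 were higher (Aen, Ccng1, Cdkn1a, Phlda3 and Bax), against 12.6% of all tested genes, and 0 were lower, against 10.1%. These counts take the brightest probe of each gene. The other Trp53inp1 probe was lower, with a mean log2 of -0.54 and a limma p of 0.0203 in a fit of all probes. Counted without any model, 3 of 9 were higher on all 4 arrays, against 13.3%, and 0 were lower on all 4, against 10.9%. The median of the 9 was a log2 knockout over control of 0.17, with 0.44, 0.22, 0.10 and 0.14 on arrays 1 to 4, while the median of all tested genes was -0.00075. The genes were chosen with earlier results of these data known, so these counts and shares describe the set and do not test it.

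The fit used the log2 ratio of each array with a term for the dye, so its standard errors leave out any difference between the orientations. Without the dye term 4 of 9 genes were higher at an unadjusted p under 0.05, against 9.04% of all tested genes, and Bax was the one lost. Leaving out an array changed the 5 to 2 without array 1 (Aen and Ccng1), 4 without array 2, 3 without array 3 and 3 without array 4. Aen and Ccng1 were in each of these. Among all 16247 genes, 2883, 2729, 2064 and 2941 had an unadjusted p under 0.05 without arrays 1 to 4 in turn, in either direction.

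**Figure D1:**
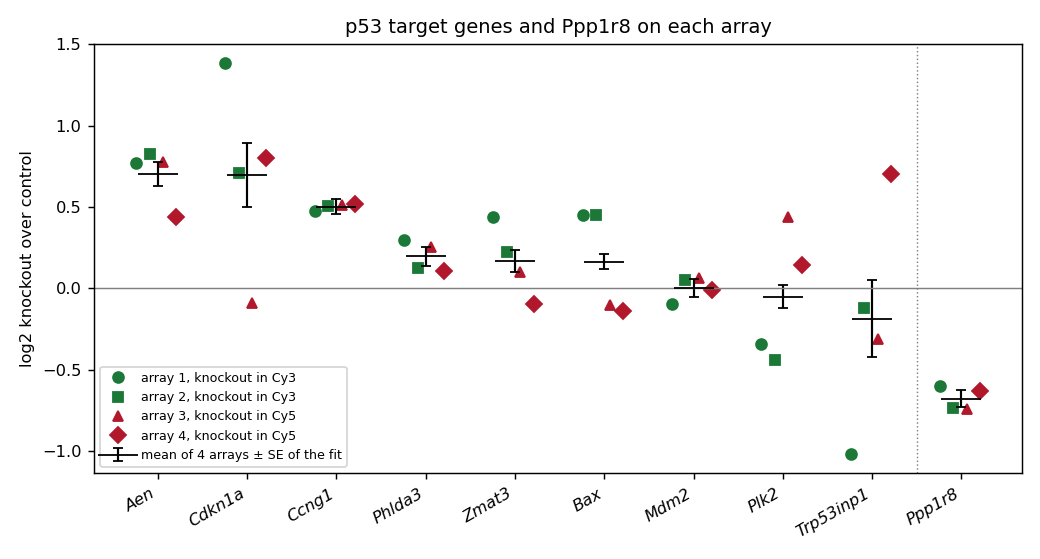
Log2 knockout over control (y axis) of the 9 tested p53 target genes and of Ppp1r8 on each of the 4 arrays, in green where the knockout RNA carried Cy3 and in red where it carried Cy5. Black bars are the mean of the 4 arrays with the standard error of the limma fit. All 4 points of Aen, Ccng1 and Phlda3 lie above 0, Bax and Plk2 split by colour, and Trp53inp1 runs from -1.02 to 0.70.

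Some facts of the data touch these values. Ppp1r8, the targeted gene, was lower in the knockout on every array (-0.60, -0.74, -0.74 and -0.63 on arrays 1 to 4). Its mean was -0.68 ± 0.05 (SE), or -1.33 with the processed signals of the same probe. The other probe had -0.65, or -1.22 with the processed signals. Both Ppp1r8 probes stayed well above background in all 4 knockout mice. Whether they lie in the deleted part cannot be told from the labels. The share of spots well above background was 52.7% to 56.3% by array and dye, and none was saturated. Hepatocyte markers had signal in all samples, 8 of 8 tested, at a mean log2 intensity of 15.92 to 16.38 in knockout and 15.91 to 16.29 in control mice. Markers of pancreatic acinar cells, 15 of 15 tested, differed between mice (mean level 6.85 to 11.91 in knockout, 7.06 to 9.81 in control), with median log2 ratios of 4.23, -2.64, -0.16 and -1.05 on arrays 1 to 4. Biliary markers, 8 of 8 tested, were at 7.34 to 7.48 in knockout and 6.99 to 7.27 in control mice, and 6 of the 8 were higher on all 4 arrays, against 13.3% of all tested genes. Of 8 lymphocyte markers on the array 3 were tested, at 7.3 to 7.5 in knockout and 7.4 to 7.6 in control mice. Ncr1 was the 1 of the 8 not well above background in any mouse. Endothelial markers, 8 of 8 tested, were at 10.00 to 10.05 in knockout and 10.11 to 10.19 in control mice. Of these, 1 was lower on all 4 arrays, against 10.9% of all tested genes. The mean levels of Kupffer, stellate, neutrophil and erythroid markers overlapped between the genotypes. What part these cells have in the values below was not tested. In whole liver, fewer cells of a type and less RNA per cell cannot be told apart.

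Among the genes of growth arrest, Cdkn1a encodes p21, which inhibits cyclin-dependent kinases and is the best known p53 target. On arrays 1 to 4 its log2 knockout over control was 1.38, 0.71, -0.09 and 0.80. Array 3 stood apart from the other 3, which were all positive. The mean was 0.70 ± 0.20 (SE; SD 0.61, n = 4; 95% interval 0.17 to 1.23), with a limma p of 0.0213 and an adjusted p of 0.153. Its probe (mm9, chromosome 17, 29237377 to 29237436) was printed as 10 spots per array. They share 1 labelled RNA pair and 1 hybridisation, so they show the error between spots only. The spots ran from 1.28 to 1.45 on array 1, 0.65 to 0.77 on array 2 (9 spots used), -0.12 to -0.05 on array 3 and 0.74 to 0.84 on array 4. The SD between spots was at most 0.06.

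By mouse, the Cdkn1a level in Cy3 was a log2 intensity of 9.89 and 10.11 in the knockout and 9.85 and 9.64 in the control mice. In Cy5 it was 9.76 and 10.44 in the knockout and 8.51 and 9.40 in the control mice. Knockout mice lay above control mice within each dye, though the control mouse of array 3 (9.85) exceeded the knockout mouse on the same array (9.76). The lowest of the 8 was the control mouse of array 1. On that array the acinar markers had a median log2 knockout over control of 4.23, so they were higher in the knockout mouse. Without array 1 the Cdkn1a mean was 0.53 and without array 3 it was 0.92. Cdkn1a missed an unadjusted p of 0.05 without array 1 and without array 4. The other probes of Cdkn1a were dim. One was well above background in 1 knockout and 1 control mouse, and the other, assigned in the array files to the alternative transcript NM_001111099, in none of the 8, so neither was tested.

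Ccng1 encodes cyclin G1, a p53 target that acts with protein phosphatase 2A on the Mdm2 loop. Its log2 knockout over control was 0.47, 0.51, 0.51 and 0.52 on arrays 1 to 4. The 4 arrays gave nearly the same value in both dye orientations. The mean was 0.50 ± 0.05 (SE; SD 0.02, n = 4; 95% interval 0.38 to 0.62), with a limma p of 0.000265 and an adjusted p of 0.0586. Levels were 9.26, 9.29, 9.56 and 9.43 in the knockout mice of arrays 1 to 4 and 8.79, 8.79, 9.05 and 8.92 in the control mice. The lowest knockout mouse was above the highest control mouse, whichever dye each carried. The probe lies on chromosome 11, 40562427 to 40562486 (mm9, minus strand).

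Plk2, a polo-like kinase that p53 induces at the cell cycle checkpoints, moved with the dye. It had log2 ratios of -0.34 and -0.44 on arrays 1 and 2, and 0.44 and 0.14 on arrays 3 and 4. The mean was -0.05 ± 0.07 (SE; limma p 0.507), and the dye term had a p of 0.00708. Whatever the genotype, Plk2 read higher in Cy5 (7.07 to 7.45) than in Cy3 (6.74 to 7.01). Its probe lies on chromosome 13, 111190915 to 111190974 (mm9). The knockout values lay between 6.99 and 7.18 and the control values between 6.74 and 7.45, so the genotypes overlapped.

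In the feedback loop, Mdm2, the ubiquitin ligase that targets p53 for degradation, had log2 ratios of -0.10, 0.05, 0.06 and -0.01 on arrays 1 to 4. The mean was 0.00 ± 0.05 (SE; 95% interval -0.14 to 0.15; limma p 0.974). The probe lies on chromosome 10, 117126010 to 117126069 (mm9, minus strand). Levels in the 8 mice lay between 11.45 and 11.68, and the genotypes overlapped in both dyes. The interval leaves room for a difference of up to 0.15 in either direction. Neither the sign nor the size of this small value held, since it was -0.02 with the background parameters fitted on all spots and 0.06 with median centring.

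The genes tied to cell death gave a mixed picture. Aen, a nuclease that enters the nucleus and fosters apoptosis, had log2 ratios of 0.77, 0.83, 0.78 and 0.44 on arrays 1 to 4. Array 4 was lower than the other 3. The mean was 0.70 ± 0.07 (SE; SD 0.18, n = 4; 95% interval 0.50 to 0.90), with a limma p of 0.000508 and an adjusted p of 0.0586. The knockout mice of arrays 1 to 4 had levels of 12.89, 12.96, 12.94 and 12.69, and the control mice 12.13, 12.13, 12.17 and 12.25. The groups did not overlap in either dye or across them.

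A second Aen probe gave 0.74, 0.80, 0.74 and 0.46. The probes share 50 of their 60 bases and are offset by 10, so the second repeats the first on the same RNA and is no independent reading. Their first 30 bases are shown with the shared bases in capitals.
Aen probe at mm9 chromosome 7, 86053197 to 86053256: ttactgggagAAGTCAGCTTGCTCATAGTA
Aen probe at mm9 chromosome 7, 86053207 to 86053266: AAGTCAGCTTGCTCATAGTACCAGACCATC

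Whether Aen and Ccng1 passed 0.05 depended on the setting, while their log2 values moved little. The adjusted p was 0.00135 for Aen and 0.00335 for Ccng1 in the separate-channel limma fit, which uses the intensity of each dye in place of ratios. In that fit 2743 of 16234 genes had an adjusted p under 0.05, against 0 of 16247 in the main fit. Over the 14 alternatives the adjusted p of Aen ran from 0.00135 to 0.248 and that of Ccng1 from 0.00335 to 0.262. Over the same alternatives the log2 value of Aen stayed between 0.62 and 0.79 and that of Ccng1 between 0.44 and 0.56. Both log2 values were unchanged with no dye term, the other filters, trend and robust, and separate channels. Those settings acted on the p-values and on which genes were tested.

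Bax, the pore-forming protein that permeabilises mitochondria, had log2 ratios of 0.45 and 0.45 on arrays 1 and 2 but -0.10 and -0.14 on arrays 3 and 4. The mean of 0.16 ± 0.05 (SE) had a limma p of 0.0199 with the dye term and 0.275 without it, and the dye term itself had a p of 0.00259. The probe lies on chromosome 7, 52717122 to 52717181 (mm9, minus strand). In Cy3, Bax levels were 10.61 and 10.58 in the knockout and 10.30 and 10.39 in the control mice. In Cy5 they were 10.20 and 10.25 in the knockout and 10.16 and 10.13 in the control mice. Read within a dye, the knockout mice were above the control mice in both, by a smaller margin in Cy5. Read as ratios within an array, only arrays 1 and 2 were positive.

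By that reading within each dye, 4 of the 9 genes (Aen, Ccng1, Cdkn1a and Bax) had both knockout mice above both control mice in Cy3 and in Cy5, against 11.4% of all tested genes.

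**Figure D2:**
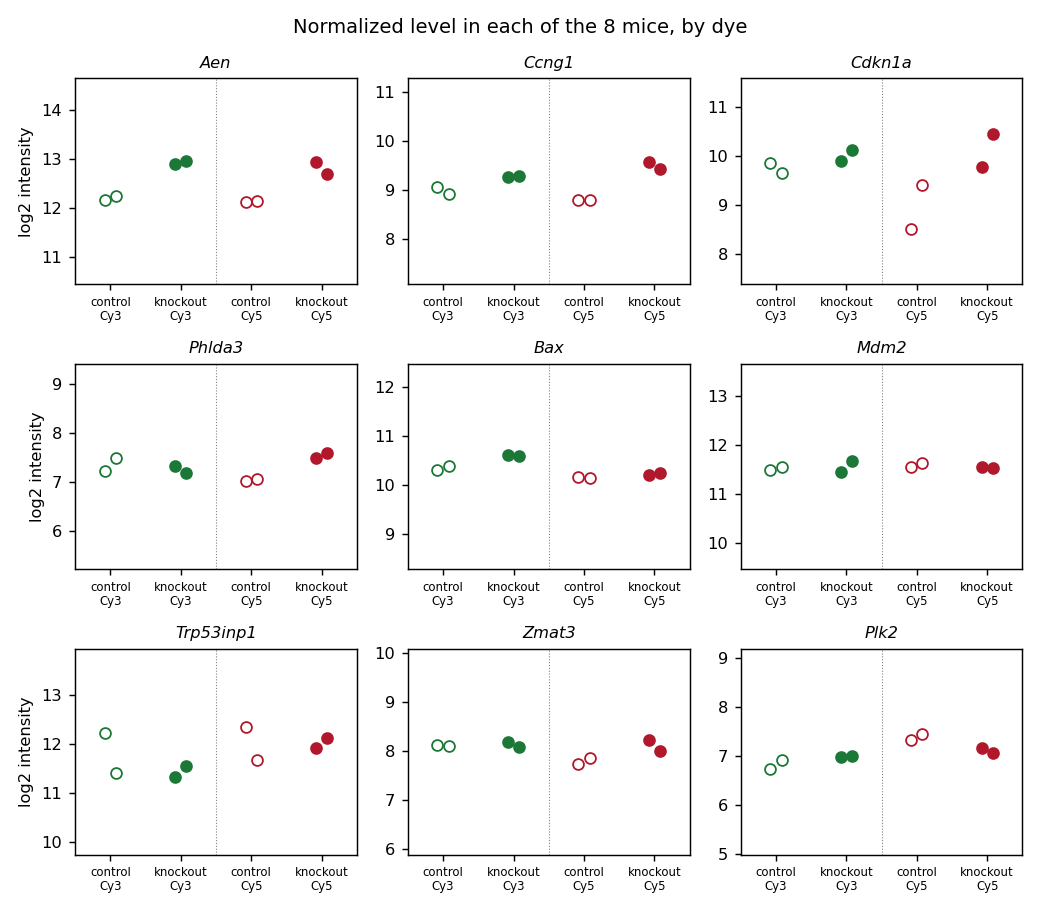
Normalized log2 intensity (y axis) of the 9 tested genes in each of the 8 mice, grouped on the x axis by dye and genotype, with open points for control and filled points for knockout mice. All panels span the same range of log2 units. Aen, Ccng1, Cdkn1a and Bax separate the genotypes within each dye, and Mdm2 is level at 11.45 to 11.68. Bax shifts between dyes, and in Cy5 its lowest knockout mouse (10.20) is close to its highest control mouse (10.16).

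Phlda3, a repressor of the survival kinase Akt, had log2 ratios of 0.30, 0.13, 0.26 and 0.11 on arrays 1 to 4. All 4 were positive and small, at a probe on chromosome 1, 137665642 to 137665701 (mm9). The mean was 0.20 ± 0.06 (SE; limma p 0.0264, adjusted p 0.166), and it was 0.32 with the processed signals of the scanner software. In Cy5 the knockout mice (7.49 or more) were above the control mice (7.07 or less), whereas in Cy3 the knockout mice (7.33 and 7.20) lay on both sides of the lower control mouse (7.23).

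Trp53inp1, a stress protein that fosters p53 activity and autophagy, varied most among arrays of the 9 genes. Its brighter probe (mm9, chromosome 4, 11101174 to 11101233) had -1.02, -0.12, -0.31 and 0.70, with a mean of -0.19 ± 0.24 (SE; SD 0.71, n = 4; limma p 0.472). Levels ran from 11.33 to 12.11 in the knockout and from 11.41 to 12.35 in the control mice, and the genotypes overlapped. The mean turned positive without array 1 (0.04) or array 3 (0.07).

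The other Trp53inp1 probe lies nearer to the start of the gene (mm9, chromosome 4, 11092530 to 11092589) and does not overlap the first. It had -1.27, -0.54, -0.38 and 0.05, with a mean of -0.54 ± 0.15 and a limma p of 0.0203 (adjusted p 0.147) in a fit of all probes. Both probes ordered arrays 1 and 4 the same way, lowest and highest. They disagree on how far the mean lies below 0, and the first 30 bases of each are shown because they read different parts of the transcript.
Trp53inp1 brighter probe: gtgtgtttatgggcacaatgttttctctca
Trp53inp1 other probe: aactcctgtcctggtctcagtgaggcgagt

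Eda2r, a receptor of the tumour necrosis factor family for ectodysplasin, had no signal to compare. Its 2 probes were not well above background in any of the 8 mice, so no fold is given. Zmat3, a zinc finger protein that binds RNA, probed at chromosome 3, 32233831 to 32233890 (mm9, minus strand), had log2 ratios of 0.44, 0.22, 0.10 and -0.10 on arrays 1 to 4. The mean was 0.17 ± 0.07 (SE; limma p 0.0639, adjusted p 0.246), and its interval of -0.02 to 0.35 includes 0. Zmat3 levels in the knockout mice, up to 8.23, overlapped with those in the control mice, 7.74 to 8.13.

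**Figure D3:**
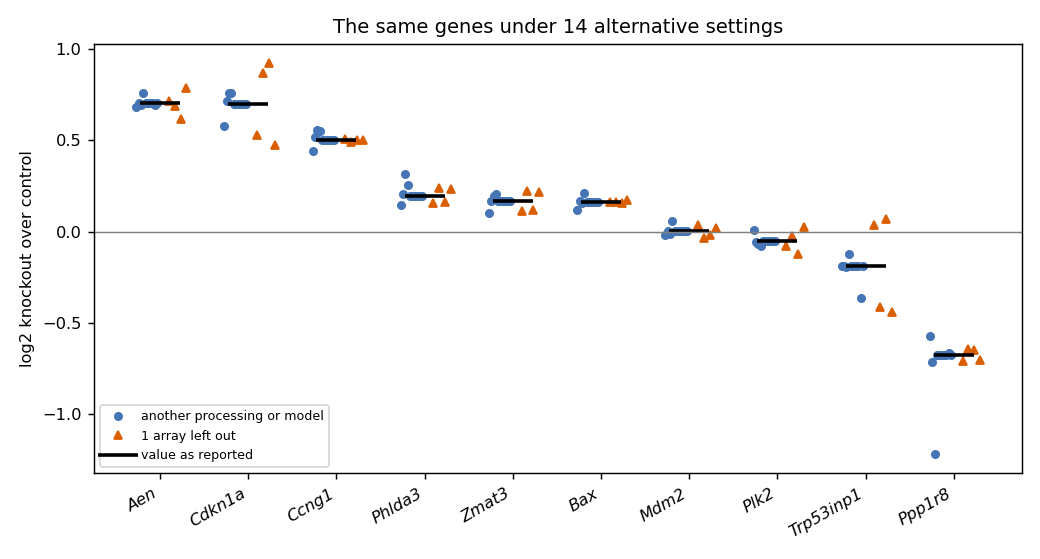
Log2 knockout over control (y axis) of the 9 tested genes and Ppp1r8 as reported (black bar), under each other processing or model (blue) and with 1 array left out (orange). Aen, Ccng1, Cdkn1a, Phlda3, Zmat3 and Bax stay above 0 throughout, while Mdm2, Plk2 and Trp53inp1 cross it. Settings that act only on the p-values or on which genes are tested repeat the reported value. Ppp1r8 reaches -1.22 with the processed signals, where its other probe stood for it.

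The rest of the pathway was read from lists of p53 regulators and of other p53 targets, 88 tested genes of 104 on the array. Of these, 11 were higher and 11 lower at an unadjusted p under 0.05, which is 1 in 8 in each direction and near the 12.6% and 10.1% of all genes. Their median was -0.00096. On all 4 arrays 12 were higher and 13 lower, near the 13.3% and 10.9% of all genes. Symbols are current ones where a probe matched a RefSeq accession, and otherwise those of the array design. Pidd1 and its older name Lrdd count apart for this reason. Exons and untranslated regions at the probes are not given, as no annotation of mm9 was used here.

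Among p53 and its regulators, 19 tested, 1 was higher and 4 lower at an unadjusted p under 0.05, with a median of -0.03. Trp53 itself had -0.01, -0.29, -0.15 and -0.02 on arrays 1 to 4, with a mean of -0.12 ± 0.07 (limma p 0.155). Mdm4, which blocks the activation domain of p53, had -0.42, -0.25, -0.44 and -0.54. All 4 were negative, and the mean was -0.41 ± 0.06 (limma adjusted p 0.0666). Ppm1d, the phosphatase WIP1 that is both a p53 target and a brake on p53, had -0.43, -0.49, -0.25 and -0.08, with a mean of -0.31 ± 0.05 (limma adjusted p 0.0860). With the processed signals Trp53 had a mean of -0.32, Mdm4 -0.81 and Ppm1d -0.53. Atr, a kinase of the replication stress response, had a mean of -0.21 and was negative on all 4 arrays, as was Daxx, a histone chaperone (-0.19), which was named after its value was seen. Trp73, a relative of p53, had 0.13 and was the one higher.

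Of 9 tested genes of growth arrest and senescence beside Cdkn1a, 2 were higher at an unadjusted p under 0.05 and 0 lower, with a median of -0.07. Gadd45a, a stress sensor, had -0.13, 0.64, 1.14 and 0.86 on arrays 1 to 4, with a mean of 0.63 ± 0.15 (limma p 0.0117, adjusted p 0.123), or 1.10 with the processed signals. Gdf15, a secreted stress cytokine, had -0.32, 3.62, 1.56 and 2.62, with a mean of 1.87 ± 0.70 (limma p 0.0522). Gadd45a and Gdf15 were negative on array 1 alone, the array on which Cdkn1a was highest. The other gene counted as higher, Ccnd1 or cyclin D1, named after its value was seen, lay between 2.40 on array 1 and -0.71 on array 4. Btg2, an antiproliferative gene, had -0.11 ± 0.12 (limma p 0.394).

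None of the 13 tested cell death targets passed an unadjusted p of 0.05 in either direction, and their median was 0.01. Bbc3, which encodes the BH3-only protein PUMA, had 0.08, -0.36, 0.44 and 0.98, with a mean of 0.29 ± 0.13 (limma p 0.0835). Fas, a death receptor, had 0.07 ± 0.05 (limma p 0.218). Pmaip1, which encodes NOXA, was well above background in 2 knockout and 2 control mice and was not tested.

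Repair genes went both ways. Of 9 tested, 2 were higher and 3 lower at an unadjusted p under 0.05. Mgmt, which removes alkyl groups from guanine, had 0.47, 0.64, 0.67 and 0.64, with a mean of 0.61 ± 0.05 (limma adjusted p 0.0586). Ddb2, which recognises ultraviolet damage, had -0.24 ± 0.05 and was negative on all 4 arrays. Fancc (0.15) and Xpc (-0.17), also counted, were named after their values were seen, and neither had 1 sign on all 4 arrays. Fancc had 0.28 with the processed signals.

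Of the 15 tested targets of metabolism and redox balance, 2 were higher and 0 lower at an unadjusted p under 0.05, with a median of 0.05. These were the glycolytic enzyme gene Tpi1, with 0.40 ± 0.04 (limma adjusted p 0.0616), and Ephx1, an epoxide hydrolase, with 0.22 ± 0.08. Sesn2, a stress-induced sestrin, had -0.04 ± 0.11 (limma p 0.745).

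Among 24 other direct targets tested, 4 were higher and 5 lower at an unadjusted p under 0.05, and the median was 0.01. Dglucy, a mitochondrial glutamate cyclase, had 0.61 ± 0.08 (limma adjusted p 0.0666), Sulf2, a heparan sulphatase, 0.32 ± 0.06 (0.0946) and Rps27l, a ribosomal protein paralogue, 0.18 ± 0.05. Lower were Trp53inp2, a relative of Trp53inp1 in autophagy, with -0.42 ± 0.11, and Fdxr, a mitochondrial reductase, with -0.25 ± 0.06, besides Ppm1d. The others counted, named after their values were seen, were Mr1 (0.30), Ltb4r1 (-0.40) and Fbxw7 (-0.14), which had 0.52, -0.80 and -0.24 with the processed signals.

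The S and M phase genes that p53 lowers through Cdkn1a had a median of 0.07 over 9 tested, with 1 higher and 0 lower at an unadjusted p under 0.05. E2f1, a driver of S phase, was the one higher, with 0.74, 0.60, 0.58 and 0.05 on arrays 1 to 4 and a mean of 0.49 ± 0.10 (limma adjusted p 0.109).

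**Figure D4:**
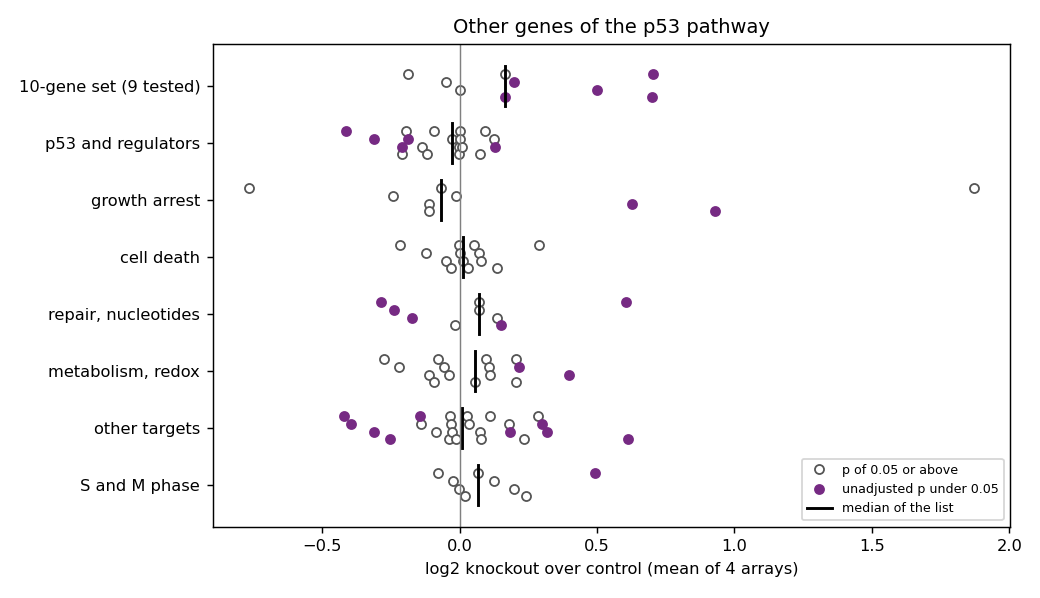
Mean log2 knockout over control of the 4 arrays (x axis) for each tested gene of the lists of the p53 pathway (y axis), filled where the unadjusted limma p is under 0.05, with the median of each list as a bar. The 9 tested genes of the 10-gene set have a median of 0.17, and the other lists have medians between -0.07 and 0.07. The point at 1.87 is Gdf15.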

How the data were processed

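The values are intensities and ratios from 4 arrays. Per the file headers, the deposited scanner files (Agilent Feature Extraction 10.7.3.1, probe positions on mm9) hold mean intensities and local background intensities per spot and dye, processed intensities (background subtracted, spatial trend and dye bias removed by that software), and log10 ratios, which were not tested. Values in the table of log2 ratios deposited by the authors, 43020 per array, lay within 0.0001 of log2 knockout over control of the processed signals. Its column medians were -0.05, 0.14, -0.18 and -0.18, so no centring had been added.

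Background was corrected with normexp (offset 50), with parameters fitted without spots marked for non-uniform background, since the fit on all spots failed on replicate 1 (Cy3 background mean -273, against 4.07 without them). Replicate numbers are those of the arrays in accession order. Loess within arrays followed, with control spots at weight 0. Control and outlier spots (194 to 230 per array) were left out, and spots of a probe averaged. A probe entered the test if 3 or more mice of either genotype had it well above background, and the brightest probe stood for a gene. Of 39429 probes, 27234 matched a RefSeq accession for a current symbol, and 2744 had no name. Levels per mouse are loess and Aquantile log2 intensities.

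Limma 3.58.1 in R 4.3.3 fitted the array ratios with a dye term (two-sided, Benjamini-Hochberg over all genes, threshold 0.05) and was tested on simulated data. The number of arrays limits the precision. P-values of the main fit rest on the spread between pairs of mice within each dye orientation, with the variance of each gene drawn toward that of all genes. Of pathway genes the text always names 10, and of each list up to 3 per direction with the lowest p under 0.05 and 1 sign on all 4 arrays; Eda2r and Pmaip1 had no tested probe. Members and lists were chosen with earlier results of these data known. Some items these rules would name are not reported here. Promoter windows are from RefSeq. Figures were drawn with matplotlib 3.10.9. The alternatives were other background corrections, the processed signals, median centring, other filters, another probe rule, other variance models and dropping each array.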

Additional observations from a re-analysis of the deposited data

Results flagged for a closer look

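Bax differed between the dye orientations, with a mean log2 knockout over control of 0.45 on the 2 arrays with the knockout in Cy3 and -0.12 on the 2 with it in Cy5 (limma p of the dye term 0.00259). Plk2 differed the other way, with -0.39 and 0.29 (limma p of the dye term 0.00708). Different mice lie on either side of that comparison, so dye and mice cannot be told apart. In Aen the value of array 4, 0.44, stood apart from the other 3, its gap to the nearest being 0.850 of the whole range, above Dixon's 95% limit for 4 values. Chance marks about 1 in 20 such groups. The second Aen probe, which overlaps the first, and the processed signals of both probes were also lowest on array 4, but their gaps were within that limit.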

How the results depend on the processing

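Over 14 alternatives Cdkn1a, Ccng1, Bax, Aen, Phlda3 and Zmat3 kept a positive value and Ppp1r8 a negative one. With no dye term, the other filters, trend and robust, and separate channels these values were those of the main fit. Those settings therefore do not bear on the sign. With normexp fitted on all spots Mdm2 was -0.016 and Plk2 0.0098, and with the processed signals Mdm2 was -0.011. Leaving out a replicate gave Mdm2 between -0.035 (without replicate 2) and 0.039 (without replicate 1), Trp53inp1 between -0.44 (without replicate 4) and 0.068 (without replicate 3), and Plk2 between -0.12 (without replicate 3) and 0.024 (without replicate 4). Mdm2 was also -0.016 without replicate 3, and Trp53inp1 0.038 without replicate 1. The cause was not tested. With a replicate left out, between 2 and 4 p53 target genes had an unadjusted limma p under 0.05. Between 3 and 5 of them had 1 sign on all arrays kept, a share that was not counted over all genes. Of all genes, 2064 to 2941 had an unadjusted limma p under 0.05, where fewer samples leave fewer degrees of freedom. Genes at a limma adjusted p under 0.05 numbered 29 with no background correction, 8 with the processed signals, 207 with median centring, 10 with no dye term, 266 with no filter, 475 with trend and robust and 2743 with separate channels. Aen and Ccng1 passed it with median centring (0.0486 and 0.0459), no filter (0.0431 and 0.0403), trend and robust (0.0341 and 0.0281) and separate channels, where Bax passed too (0.0303, over a range of 0.0303 to 0.645). With median centring 71.5% of genes at an unadjusted p under 0.05 were higher, against 55.6%, and the median of all genes was 0.03. A block for slide or scan was not run, since the headers give 1 slide and 1 scan. The value table holds the processed signals' ratios, so it gave no further values. The ratio of each array already pairs 1 knockout with 1 control mouse, and the labels give no replicate numbers for any further pairing.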
